A study of Mus musculus with 6 samples.

Results

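The troponin and tropomyosin genes of skeletal muscle were followed in cultured mouse muscle satellite cells. The set holds 10 genes, taken by symbol from the 27179 gene rows of the count table: troponin I (Tnni1, Tnni2), troponin T (Tnnt1, Tnnt2, Tnnt3), troponin C (Tnnc1, Tnnc2) and tropomyosin (Tpm1, Tpm2, Tpm3). All 10 were expressed well above the filter on low counts. The cells were primary satellite cells from hindlimb muscle of wild-type C57BL/6 mice, which the labels call ageing without giving an age. One group of 3 libraries came from cells given recombinant human MG53 (rhMG53) for 72 h, and the other group of 3 from cells given the vehicle protein, bovine serum albumin (BSA), for the same time. All cultures were kept in the same growth medium with fetal bovine serum and bFGF. MG53 is a protein of striated muscle known for its part in membrane repair. The series describes the libraries of a group as biological replicates without saying which animal or dish each came from, so the p-values reflect only how much these libraries vary, some of which may be technical.

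Troponin and tropomyosin make the thin filament of the sarcomere responsive to calcium. Tropomyosin is a coiled coil that lies along actin, troponin T binds the complex to tropomyosin, troponin I holds back the interaction of actin with myosin, and troponin C binds calcium and relieves that hold. Each subunit is encoded by separate genes used in slow, fast or heart muscle, and developing skeletal muscle is known to express slow and heart forms beside fast ones. Gene-level counts add up all splice forms of a gene, and Tpm1, Tpm2 and Tpm3 each give both muscle and cytoplasmic forms.

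Total counts ran from 17374151 to 19827476 per rhMG53 library and from 17898768 to 22738745 per BSA library. Of these the 10 genes took 2.64%, 3.06% and 2.87% in rhMG53 replicates 1 to 3 and 2.63%, 2.81% and 2.96% in BSA replicates 1 to 3. Their sum was 28577 ± 2111 CPM (counts scaled to a fixed library total) with rhMG53 and 27987 ± 1660 CPM with BSA (SD, n = 3 each), a difference smaller than the spread (exact 2-sided permutation test, p = 0.7, where 0.1 is the smallest that 3 against 3 allows). By their mean over the 6 libraries 9 of the 10 genes stood in the top 1% of the 13769 tested genes, with Tpm3 as the exception. RNA of differentiated muscle was thus abundant, while the stem cell factor Pax7 stood at 7.46 to 10.1 CPM with rhMG53 and 9.28 to 11.2 CPM with BSA. Fewer cells of a type and less RNA per cell cannot be told apart in such bulk samples.

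None of the 10 genes passed the test between rhMG53 and BSA. In edgeR's quasi-likelihood test 0 of the 10 passed an adjusted p of 0.05, against 0.0218% of all tested genes (3 of 13769), and 0 had an unadjusted p under 0.05, against 5.2% of all tested genes. DESeq2 and limma voom also called 0 of the 10. The log2 fold changes, rhMG53 over BSA, lay between -0.038 and 0.048, with 6 above 0 and 4 below, and had a median of 0.013, beside 0.0014 over all tested genes. The groups overlapped in every one of the 10 genes, while over all tested genes they did not overlap, upward, in 5.94% and, downward, in 4.83%. The 95% intervals show how large a change these libraries leave room for. For 8 genes they reached no further than -11.8% and +16.2%, and for Tnnt1 and Tpm3, which varied more between libraries, they spanned -15.9% to +21.8% and -21.4% to +20.8%.

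**Figure D1:**
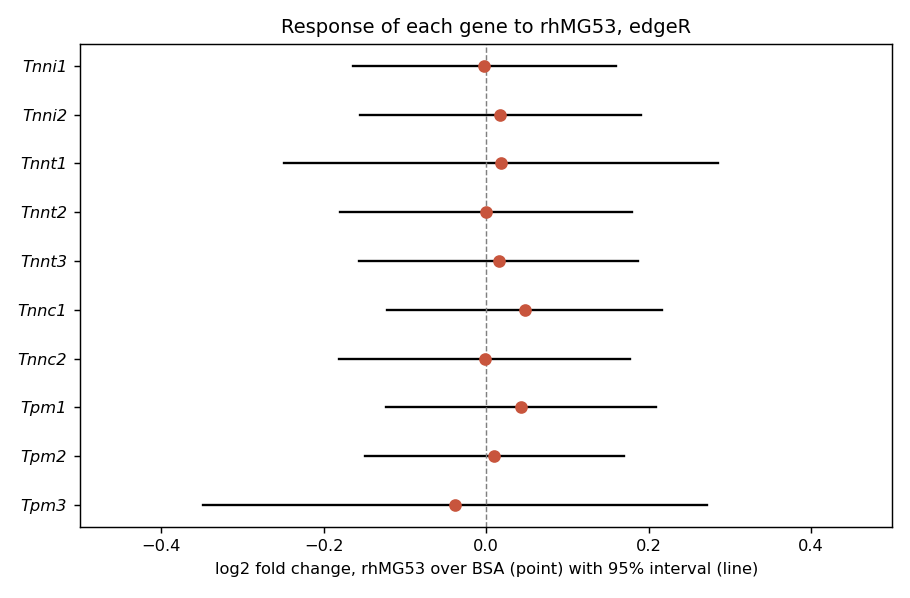
Log2 fold change of each gene, rhMG53 over BSA, from edgeR (point) with its 95% interval (line). All 10 points lie between -0.038 and 0.048, and all intervals include 0, with the widest for Tpm3 and Tnnt1.

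Troponin I is the inhibitory subunit. Tnni1, the slow skeletal form (gene ID 21952, mm10 chromosome 1, 135783033 to 135810989), measured 2869, 3083 and 3102 CPM in the rhMG53 libraries, given here and below as replicates 1 to 3, and 2803, 3097 and 3168 CPM in the BSA libraries. The lowest library of each group was replicate 1, and the ranges lay almost on top of each other (log2 fold change -0.0023, SE 0.073). Tnni2, the fast form (gene ID 21953, chromosome 7, 142441816 to 142444410), was at 734, 854 and 827 CPM with rhMG53 and at 736, 798 and 852 CPM with BSA. Again replicate 1 was lowest in each group, and the groups overlapped (0.017, SE 0.078). Tnni3, the heart form, is the remaining troponin I gene and had 6, 7 and 4 reads with rhMG53 and 8, 11 and 7 reads with BSA, too few for the test.

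Troponin T ties the complex to tropomyosin. Tnnt1, the slow skeletal form (gene ID 21955, chromosome 7, 4504569 to 4515975), was at 1006, 1157 and 1199 CPM with rhMG53 and at 929, 1049 and 1343 CPM with BSA. The lowest and the highest library of all 6 were both BSA libraries (log2 fold change 0.018, SE 0.12). Tnnt2, known as the heart form and as a form of developing skeletal muscle (gene ID 21956, chromosome 1, 135836315 to 135852268), was at 3917, 4567 and 4080.3 CPM with rhMG53 and at 3941, 4167 and 4459.85 CPM with BSA. Both ends of its range were rhMG53 libraries, and the group means differed by less than 2 CPM, 4188 ± 338 with rhMG53 and 4189 ± 260.0 with BSA (SD, n = 3 each). Tnnt3, the fast form (gene ID 21957, chromosome 7, 142498771 to 142516213), was at 3620.5, 4216 and 3945 CPM with rhMG53 and at 3679, 3921 and 4055 CPM with BSA. Its BSA libraries all fell inside the range of the rhMG53 libraries (0.015, SE 0.078).

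Troponin C is the calcium sensor. Tnnc1, shared by slow skeletal muscle and heart (gene ID 21924, chromosome 14, 31208312 to 31211729), was at 2862, 3334 and 3104 CPM with rhMG53 and at 2837, 3109 and 3053 CPM with BSA. It had the smallest p of the set, with groups that overlapped (log2 fold change 0.048, SE 0.077, unadjusted p = 0.549 and adjusted p = 0.991 in edgeR). Tnnc2, the fast form (gene ID 21925, chromosome 2, 164777161 to 164779734), was at 2077, 2539.9 and 2306 CPM with rhMG53 and at 2225, 2312 and 2394 CPM with BSA. The rhMG53 libraries spread wider than the BSA libraries and enclosed them (-0.0017, SE 0.081).

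Tropomyosin covers the myosin sites on actin. Tpm1, the alpha form (gene ID 22003, chromosome 9, 67022590 to 67049672), was at 3316, 3690.1 and 3759 CPM with rhMG53 and at 3286, 3546 and 3617 CPM with BSA. Tpm2, the beta form and the most abundant of the 10 genes by CPM (gene ID 22004, chromosome 4, 43513726 to 43523583), was at 5769.6, 6220.0 and 6150 CPM with rhMG53 and at 5696, 6051 and 6268 CPM with BSA. Neither separated the groups (log2 fold change 0.043, SE 0.076, for Tpm1 and 0.010, SE 0.072, for Tpm2). Tpm3, the gamma form of slow fibres (gene ID 59069, chromosome 3, 90072651 to 90100902), was at 285, 354 and 387 CPM with rhMG53 and at 295, 323 and 435 CPM with BSA. BSA replicate 3 was the highest and the groups overlapped (-0.038, SE 0.14). Tpm4, a cytoplasmic tropomyosin of many cell types and no part of the set, was at 123 ± 2.37 CPM with rhMG53 and 122 ± 10.5 CPM with BSA (0.0062, SE 0.069, adjusted p = 0.998 in edgeR).

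**Figure D2:**
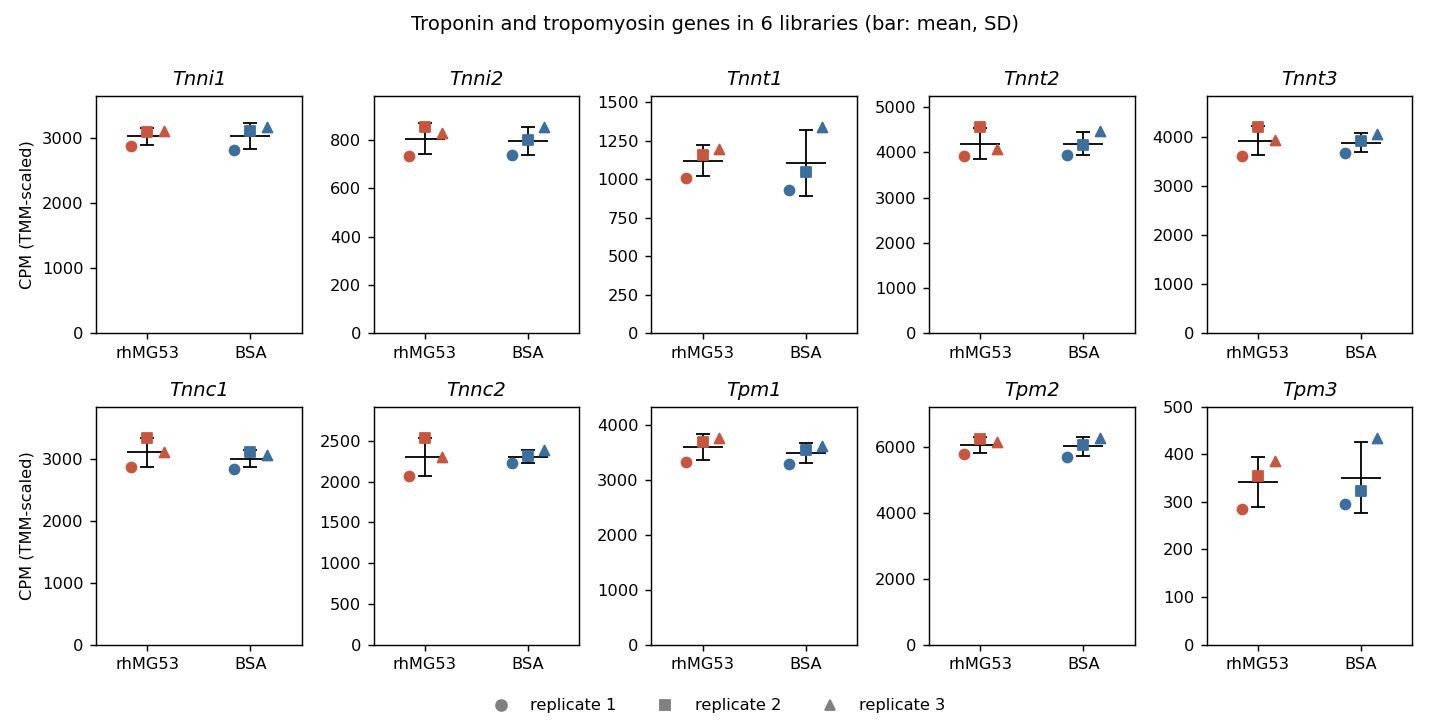
CPM (scaled with TMM factors) of each gene in the 3 rhMG53 and 3 BSA libraries. Symbols give the replicate, the horizontal bar the mean and the whiskers the SD. The groups overlap in all 10 panels, and the 2 replicate 1 libraries are the 2 lowest in each panel.

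The proportions of the isoforms were set side by side within each subunit. Levels of different genes were compared as CPM per kilobase of transcript, using the longest APPRIS principal transcript of GENCODE, and a share is a gene's part of its family on that scale. Tnni1 made up 72.3%, 70.7% and 71.5% of troponin I with rhMG53 and 71.8%, 72.2% and 71.3% with BSA. Tnnc1 made up 57.2%, 56.0% and 56.7% of troponin C with rhMG53 and 55.3%, 56.6% and 55.3% with BSA. So the slow gene led in both families, by a wide margin in troponin I and a small one in troponin C. With the union of annotated exons as the length, the troponin C margin was gone. The mean log2 ratio of Tnnc1 to Tnnc2 was then 0.048 with rhMG53 and -0.0036 with BSA. The troponin I margin also turned on the length. The mean log2 ratio of Tnni1 to Tnni2 was 0.64 with rhMG53 and 0.66 with BSA per exon union. Per coding length it was 1.87 with rhMG53 and 1.89 with BSA.

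In troponin T the fast gene led per kilobase, while in plain counts Tnnt2 led, at 45.3% with rhMG53 and 45.6% with BSA, and Tnnt3 held 42.5% with rhMG53 and 42.4% with BSA. Per kilobase Tnnt3 held 45.98 ± 0.16% with rhMG53 and 45.8 ± 1.2% with BSA, Tnnt2 held 41.1 ± 0.93% with rhMG53 and 41.4 ± 0.41% with BSA, and Tnnt1 held 12.9 ± 0.78% with rhMG53 and 12.7 ± 1.5% with BSA (SD, n = 3 each). Tropomyosin was led by Tpm2, at 58.5 ± 0.91% with rhMG53 and 59.0 ± 0.30% with BSA. Tpm1 followed at 38.4 ± 0.59% with rhMG53 and 37.8 ± 0.35% with BSA. Tpm3, as counted, was a small remainder at 3.10 ± 0.32% with rhMG53 and 3.22 ± 0.53% with BSA. The largest difference between groups was that of Tnnc1, 0.885 percentage points, which is more than the SD of either group, although the groups overlapped (exact 2-sided permutation test, p = 0.2, and 0.914 adjusted over the 8 shares tested). With 1 library left out it ran from 0.589 to 1.32 points, and without BSA replicate 3 the Tnnt1 difference (1.02) was larger than that of Tnnc1 (0.665). The groups did not overlap for Tnnc1 without rhMG53 replicate 2 or without BSA replicate 2. Nor did they overlap for Tpm1 and Tpm2 without rhMG53 replicate 1, or for Tnnt1 and Tnnt3 without BSA replicate 3. Each of these gave p = 0.2 in the exact permutation test, the smallest that 2 against 3 libraries allow. With all 6 libraries the 7 shares other than that of Tnnc1 had p from 0.3 to 1. Since no share can go below 0.1 in this design, these tests cannot show that the proportions were equal.

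**Figure D3:**
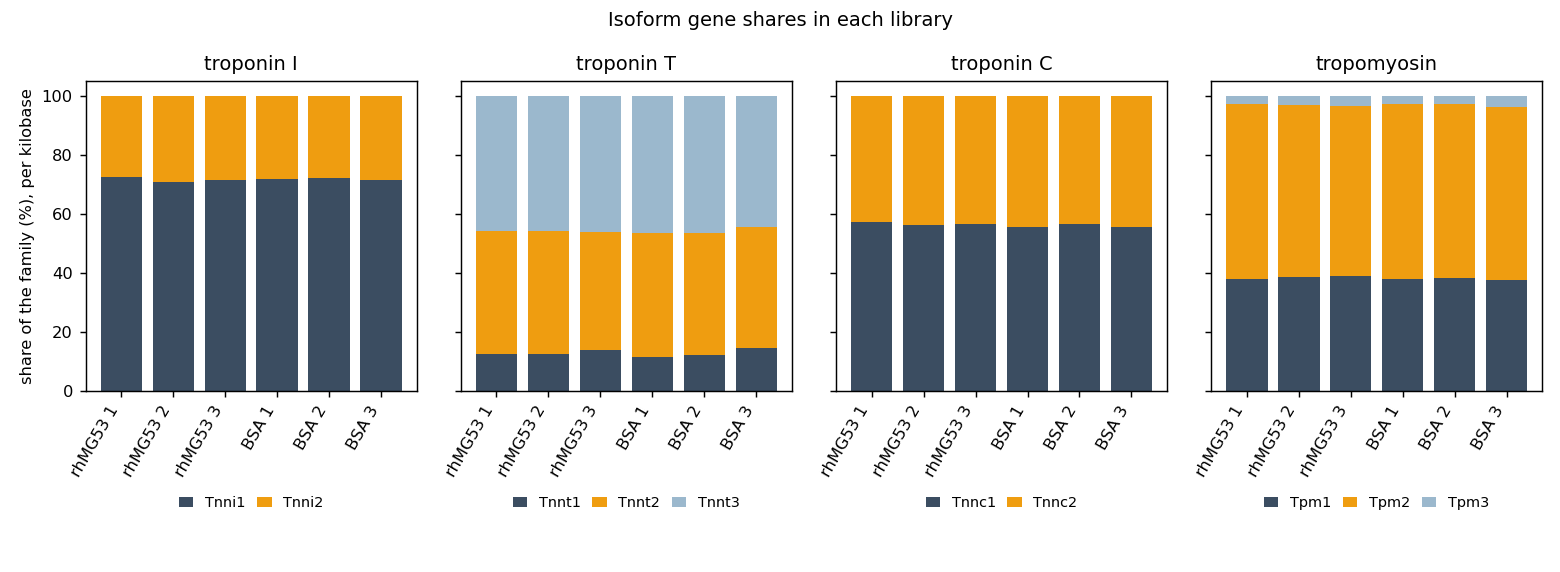
Share of each gene in its family, in percent of counts per kilobase, as stacked bars for the 3 rhMG53 and 3 BSA libraries. The Tnni1 share lies between 70.7% and 72.3% in the 6 bars; the Tnnt1 share runs from 11.5% to 14.4%, and both ends are BSA libraries.

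The slow to fast ratio puts the same counts on a log scale. The log2 ratio of Tnni1 to Tnni2 was 1.33 ± 0.057 with rhMG53 and 1.34 ± 0.031 with BSA, that of Tnnc1 to Tnnc2 was 0.39 ± 0.035 with rhMG53 and 0.33 ± 0.044 with BSA, and that of Tnnt1 to Tnnt3 was -1.84 ± 0.081 with rhMG53 and -1.86 ± 0.21 with BSA (SD, n = 3 each). Troponin I was thus mostly of the slow form, while slow troponin T was the smallest of its family. The group difference was -0.018 for troponin I and 0.017 for troponin T, both smaller than the SDs, and 0.052 for troponin C, larger than either SD. None passed the test (exact 2-sided permutation tests, p = 0.7 for troponin I, 0.2 for troponin C and 0.9 for troponin T, or 0.9, 0.6 and 0.9 adjusted over the 3), whose smallest p is 0.1. The shares depend on the length chosen. With the union of all annotated exons in place of the transcript, the Tnnt2 share was 15.3% with rhMG53 and 15.5% with BSA, the Tnnt3 share was 70.3% in both groups, and the Tpm1 share was 20.6% with rhMG53 and 20.2% with BSA.

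On the per-kilobase scale, averaged over the 6 libraries, the levels ran in the order Tnnc1 (4230.2), Tnnt3 (3879), Tnnt2 (3491), Tnnc2 (3298), Tpm2 (2872), Tnni1 (2626), Tpm1 (1863), Tnnt1 (1085), Tnni2 (1042) and Tpm3 (155). Neighbours from Tnnc1 down to Tnni1 overlapped in their ranges over the 6 libraries, although each of those 5 steps held in 6 of 6 libraries. Tnni1 was separated from Tpm1, and Tpm1 from Tnnt1. Tnnt1 and Tnni2 could not be ordered, Tnnt1 being higher in 4 of 6 libraries, and Tpm3 stood 6.71-fold below Tnni2 and 2.70-fold above Tpm4, a gap that nearly closed per kilobase of exon union (56.9 for Tpm3 and 55.5 for Tpm4). The upper part of this order depends on the length used: per kilobase of coding sequence Tpm2 came first (7072) and Tnni1 moved up to position 3, while Tnnt1, Tnni2 and Tpm3 kept the last 3 places of the set under all 3 lengths tried.

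**Figure D4:**
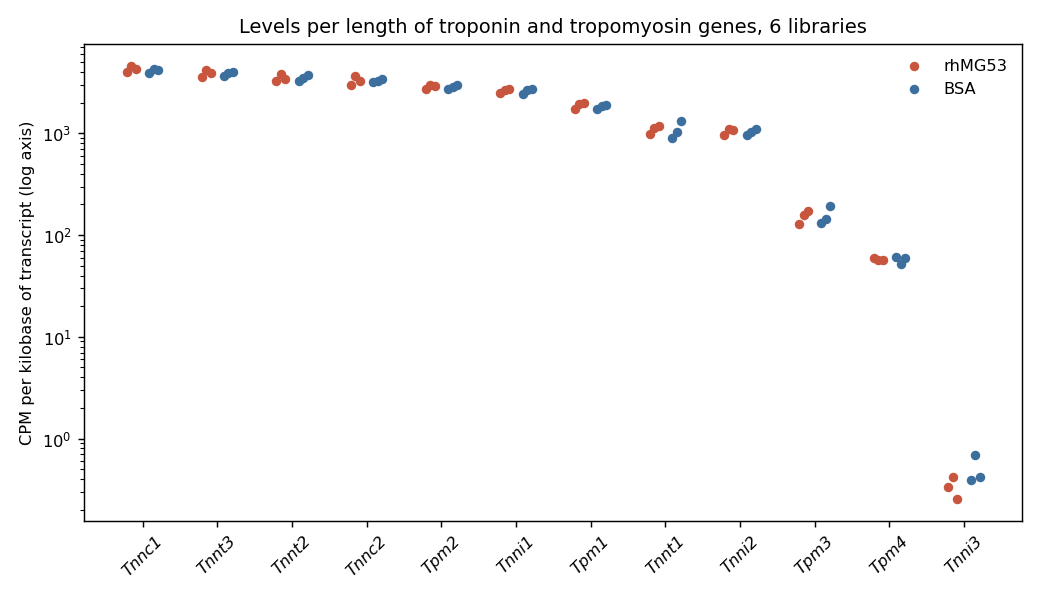
CPM per kilobase of transcript (log axis) of the 10 genes and of Tpm4 and Tnni3, with 3 rhMG53 points to the left of 3 BSA points for each gene. The first 6 genes lie within a narrow band, Tpm3 lies near 155, Tpm4 near 57.5 and Tnni3 under 1.

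Summed by subunit, troponin T exceeded troponin C by a ratio of 1.12 ± 0.012 with rhMG53 and 1.13 ± 0.046 with BSA. Troponin I stood at 0.485 ± 0.0215 of troponin C with rhMG53 and 0.491 ± 0.0137 with BSA. Tropomyosin stood at 0.65 ± 0.031 of troponin C with rhMG53 and 0.65 ± 0.012 with BSA (SD, n = 3 each). Per kilobase of coding sequence the tropomyosin ratio was 1.05 in both groups and the troponin I ratio 0.61 with rhMG53 and 0.62 with BSA. Per kilobase of exon union troponin T stood below troponin C, at 0.603 with rhMG53 and 0.606 with BSA. Troponin I was the lowest under all 3 lengths, while the order of the other subunits turned on the length.

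The spread between libraries was shared by the set. The 2 replicate 1 libraries were the lowest for all 10 genes, 5 genes in rhMG53 replicate 1 and 5 in BSA replicate 1, and the highest library was rhMG53 replicate 2 for 5 genes, BSA replicate 3 for 4 and rhMG53 replicate 3 for 1. Over all tested genes rhMG53 replicate 1 was the lowest library in 15.2% and BSA replicate 1 in 16.9%, while rhMG53 replicate 2 was the highest in 22.7% and BSA replicate 3 in 17.1%. On average the genes deviated from their own means, on the log2 scale, by -0.12, 0.086 and 0.051 in rhMG53 replicates 1 to 3 and by -0.12, -0.0074 and 0.11 in BSA replicates 1 to 3. Over the 6 libraries the coefficient of variation was 3.97% to 6.80% for 8 genes, beside a median of 5.18% for the 788 tested genes that averaged 200 CPM or more. It was 13.4% for Tnnt1 and 16.6% for Tpm3.

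**Figure D5:**
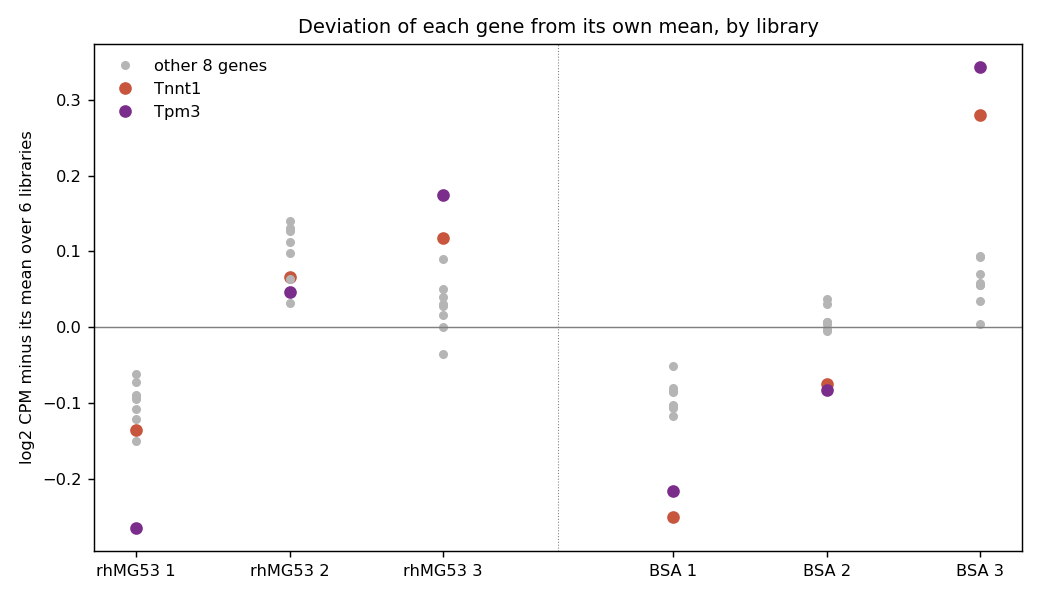
Log2 CPM of each gene minus its mean over the 6 libraries, for 3 rhMG53 libraries (left) and 3 BSA libraries (right). Grey points are the other 8 genes; Tnnt1 and Tpm3 reach 0.28 and 0.34 in BSA replicate 3 and lie lowest of all 10 in BSA replicate 1.

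Tnnt1 and Tpm3 thus swung more widely than the other genes, with both groups holding low and high libraries. Of the 12 other genes of the slow list, 5 were highest in rhMG53 replicate 3, 3 in BSA replicate 3, 2 in rhMG53 replicate 2 and 2 in BSA replicate 2. The lowest library was BSA replicate 1 for 7 of these 12 slow genes, for 6 of the 13 other fast genes and for 4 of the 9 other embryonic genes, beside 16.9% of all tested genes. It was rhMG53 replicate 2 for 2 of these slow, 4 of these fast and 4 of these embryonic genes, beside 22.5% of all tested genes. That library was the lowest for 0 of the 10 genes of the set.

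rhMG53 replicate 2, the highest library for 5 of the 10 genes, stood apart by transcript length. Among genes that averaged 50 CPM or more, the 371 whose longest coding transcript is under 1500 bases had a median deviation of 0.11 (log2) in that library, and the 1010 of 5000 bases or more had -0.15, while over all 3542 genes with a length it was -0.013. In the other 2 rhMG53 libraries the short genes were at -0.054 and -0.00051 and the long genes at 0.062 and 0.044. In BSA replicates 1 to 3 the short genes were at -0.054, -0.0012 and -0.0010 and the long genes at 0.086, 0.057 and -0.079. The longest coding transcripts of the 7 troponin genes are under 1500 bases, and their partner nebulin (Neb), with a transcript of 22489 bases, was at 2591, 1033.5 and 2634 CPM with rhMG53 and at 3059, 2302 and 1664 CPM with BSA. The part of this length pattern in the troponin values was not tested. Without rhMG53 replicate 2 the 10 log2 fold changes lay between -0.076 and 0.022, again with 0 called.

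Of the 10 genes 5 lie near a gene of another troponin subunit. Tnni1 and Tnnt2 on chromosome 1 are 25325 bases apart. On chromosome 7 Tnni2 and Tnnt3 are 54360 bases apart, and Tnnt1 and Tnni3 are 2329 bases apart. Whether other genes lie in these gaps was not examined. In these cultures both genes of the first 2 pairs were expressed. In the last pair Tnnt1 was at 1121 ± 101.7 CPM with rhMG53 and 1107 ± 213 CPM with BSA. Tnni3 was at 0.31 ± 0.075 CPM with rhMG53 and 0.45 ± 0.15 CPM with BSA (SD, n = 3 each).

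The 250 bases before the starts of the genes were searched for short motifs on both strands. Any link of such motifs to the levels over the libraries was not tested. RefSeq (GRCm38.p6) gave 11 such windows for 8 of the 10 genes, and Tnni2 and Tnnt3 had none in the table. The E-box CANNTG, the site class bound by MyoD and myogenin, was found in 11 of 11 windows, against 66.2% of the 32851 windows of all genes. Its variant CAGCTG was in 5 of 11, or in 4 of the 8 genes since the Tnni1 windows overlap and share their match (13.0% of all windows), and the MCAT motif CATTCC, the site class of TEAD factors, in 3 of 11 (12.6%). The letters TATAAA were in 1 of 11 (12.4%), and the CArG box and the MEF2 site were in 0 of 11 (1.47% and 2.92% of all windows). Most of the 11 windows overlap annotated exons of their own gene. A window of Tnnt2 and that of Tnnc1, both abundant genes, overlap no exon of GENCODE and hold E-boxes and an MCAT motif. They are therefore shown 5′ to 3′ on the gene's strand, with these motifs in capitals (GGAATG is CATTCC on the other strand). The Tnnt2 window shown is chr1:135836084-135836333 (+ strand) and the Tnnc1 window is chr14:31208062-31208311 (+ strand).
Tnnt2: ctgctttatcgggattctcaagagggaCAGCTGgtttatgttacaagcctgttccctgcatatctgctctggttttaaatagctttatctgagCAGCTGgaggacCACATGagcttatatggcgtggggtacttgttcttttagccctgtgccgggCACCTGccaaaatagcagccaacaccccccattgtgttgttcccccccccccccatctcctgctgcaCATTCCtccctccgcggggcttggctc
Tnnc1: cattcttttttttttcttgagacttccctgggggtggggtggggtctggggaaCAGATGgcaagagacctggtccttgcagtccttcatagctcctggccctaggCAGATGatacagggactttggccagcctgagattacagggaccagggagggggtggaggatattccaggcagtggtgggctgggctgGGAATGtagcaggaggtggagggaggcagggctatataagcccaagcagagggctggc
The Tnnt2 window shown holds 4 E-boxes, 2 of them CAGCTG, and the Tnnc1 window holds 2 E-boxes and no CAGCTG. The other Tnnt2 window overlaps a Tnnt2 exon and holds 1 E-box, with no CAGCTG and no MCAT motif. These are matches of letters in a short window and say nothing of binding in these cells.

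How well reads separate the family members was read from their sequences. Coding sequences within a family were 69.0% identical between Tnni1 and Tnni2, 70.4% between Tnnc1 and Tnnc2, 70.6% to 71.0% among the troponin T genes and 74.3% to 76.3% among Tpm1, Tpm2 and Tpm3. The longest run shared by any 2 of them was 35 bases, at base 1 of the coding sequence of both Tpm1 and Tpm2, shown here as the longest stretch that leaves the pair alike.
Tpm1 and Tpm2: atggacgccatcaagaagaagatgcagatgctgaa
No stretch of 50 bases of the transcripts of Tnni1, Tnni2, Tnnt1, Tnnt2, Tnnt3, Tnnc1, Tpm1 or Tpm2 was found in a transcript of another GENCODE gene. Tpm3 is less certain: 62.4% of its 50-base stretches are also in the pseudogene transcript Tpm3-rs7, and the handling of reads that map to several places is not given in the sources used here. Tpm3-rs7 has no row of its own in the count table. If reads fitting both places were left out, the counts of Tpm3 would be too low, which was not tested. The level of Tpm3, its share of tropomyosin and its last place in the order therefore rest on that handling. Tnnc2 shares 55.0% of its stretches with an annotated Ube2c transcript on the opposite strand. Ube2c was at 1.62, 1.42 and 2.32 CPM with rhMG53 and at 2.30, 2.15 and 2.91 CPM with BSA, far under Tnnc2. How reads lying on both genes were counted is not given. The low Ube2c counts therefore do not show that Tnnc2, and with it the shares within troponin C, were unaffected. Nisch, on the opposite strand, was taken to overlap the span of Tnnc1, although no 50-base stretch of Tnnc1 was in a GENCODE transcript of Nisch. Nisch was at 494, 434 and 499 CPM with rhMG53 and at 507, 505 and 501 CPM with BSA. The strand setting of the counting is not given, so reads of such overlaps cannot be told apart with certainty.

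The partners of these genes were followed in lists, in which edgeR, DESeq2 and limma voom each called 0 genes; at an unadjusted p under 0.05 edgeR had 2 slow genes, 1 fast gene, 1 gene of the kinase and modifier list, 1 endothelial and 1 macrophage marker, and 0 in the others. Of the 22 thin filament partners, which include actins, nebulin and the capping proteins, 6 were higher and 16 lower (median log2 fold change -0.027, beside 0.0014 over all tested genes). Acta2, smooth muscle actin, also used by immature muscle, was at 1196 ± 69.5 CPM with rhMG53 and 1314 ± 95.6 CPM with BSA (-0.14, SE 0.075). Klhl40, a stabiliser of nebulin, was at 183 ± 2.98 CPM with rhMG53 and 173 ± 5.47 CPM with BSA (0.080, SE 0.055). Neither passed, with adjusted p of 0.965 and 0.973 in edgeR.

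Of the 16 slow genes, 4 of them in the set, 9 were higher and 7 lower (median log2 fold change 0.018). Ankrd2, a stretch-responsive protein of slow muscle, was at 10.5 ± 0.85 CPM with rhMG53 and 8.47 ± 0.34 CPM with BSA (0.32, SE 0.11). Csrp3, a Z-disc LIM protein, had a log2 fold change of 0.17 (SE 0.11, unadjusted p = 0.154 in edgeR). Beside Ankrd2, the slow gene with an unadjusted p under 0.05 was Sln (0.55, SE 0.23), which averaged 4.03 CPM. Of the 17 fast genes, 4 of them in the set, 7 were higher and 10 lower (median -0.0041). Myh2, the fast IIa myosin heavy chain, was at 431, 379.8 and 556 CPM with rhMG53 and at 787, 580.2 and 539 CPM with BSA (-0.48, SE 0.15), and Atp2a1, the fast calcium pump, had -0.11 (SE 0.071). Of the 10 embryonic and neonatal genes 3 were higher and 7 lower (median -0.010), with Chrng, the fetal acetylcholine receptor subunit, at -0.11 (SE 0.059) and Ncam1, an adhesion protein, at -0.12 (SE 0.065). In edgeR the adjusted p of these genes was 0.935 to 0.973.

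Of 23 tested transcription factors of muscle genes 7 were higher and 16 lower (median log2 fold change -0.027), with the smallest p for the TEAD cofactors Vgll2 (0.17, SE 0.11) and Vgll3 (-0.11, SE 0.094). Of 22 tested kinases, ligases, proteases and splicing factors known to act on thin filament proteins 9 were higher and 13 lower (median -0.023), with the smallest p for the calpains Capn3 (-0.15, SE 0.064) and Capn1 (0.10, SE 0.055). None of these 4 passed in edgeR (adjusted p 0.950 to 0.979).

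By the root-mean-square difference of log2 CPM profiles over the 6 libraries, 5 of 1083 candidate genes lay nearest to the mean profile of the set: Dnajb5, Ckb, Atp5g1, Erp29 and Syngr2. Their differences were 0.025 to 0.032, beside a median of 0.18 over the candidates, and their own log2 fold changes were -0.042 to 0.036. Dnajb5 encodes a co-chaperone and Ckb a creatine kinase.

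Markers of other cell types were summed as lists. Of the 10 smooth muscle and myofibroblast markers Myh11, Cnn1, Myocd and Actg2 stayed under 0.6 CPM in all libraries. Synpo2 was at 277 to 335 CPM with rhMG53 and 279.6 to 302 CPM with BSA, Smtn at 172 to 191 CPM with rhMG53 and 174 to 200.2 CPM with BSA, and Tagln at 43.8 to 50.2 CPM with rhMG53 and 41.5 to 56.7 CPM with BSA. The list sum of 8078 to 8605 CPM with rhMG53 and 7653 to 8383 CPM with BSA was mostly Des and Acta2, which skeletal muscle cells also express. The 10 heart markers summed to at most 18.4 CPM with rhMG53 and 18.9 CPM with BSA, mostly from the myosin gene Myh6, and Myl7 was at 0 in all libraries. Fibroblast and fibro-adipogenic markers summed to 1203 to 1308 CPM with rhMG53 and 1054 to 1303 CPM with BSA, mostly Col1a1 and Col3a1, with Lum and Pi16 at or below 0.385 CPM. Of the 8 tested 5 were higher and 3 lower. The smallest p among them were those of Dcn and Cd34. Dcn was at 19.0 ± 0.95 CPM with rhMG53 and 16.6 ± 1.5 CPM with BSA (log2 fold change 0.19, SE 0.090), and Cd34 had 0.17 (SE 0.12). The 7 pericyte markers summed to 266 to 316 CPM with rhMG53 and 280.04 to 327 CPM with BSA, mostly Abcc9 and Pdgfrb. Mcam had a log2 fold change of -0.20 (SE 0.098) and Cspg4 0.15 (SE 0.082), while Rgs5 was at or below 0.28 CPM and Kcnj8 at 0 in all libraries. The endothelial list summed to 5.70 to 7.34 CPM with rhMG53 and 6.82 to 7.65 CPM with BSA, and the macrophage and leukocyte list to 6.73 to 10.8 CPM with rhMG53 and 6.26 to 7.74 CPM with BSA. Their genes with an unadjusted p under 0.05 were scarce. Emcn was at 0.30, 0.56 and 0.63 CPM with rhMG53 and at 1.14, 0.78 and 0.77 CPM with BSA. Lyz2 was at 0.86, 4.06 and 0.63 CPM with rhMG53 and at 0.75, 0.56 and 0.60 CPM with BSA. The satellite cell and myoblast list, of which 4 of 9 tested genes were higher, summed to 11047 to 11598 CPM with rhMG53 and 10683 to 11322 CPM with BSA, mostly Des, with Calcr under 0.12 CPM. Its genes of smallest p were Pax7 (-0.25, SE 0.13) and the laminin receptor subunit Itga7 (-0.10, SE 0.067). In all of these marker lists 0 genes passed, with the smallest adjusted p of a list between 0.946 and 0.991 in edgeR, and their part in the values of the set was not tested.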

How the data were processed

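TRIzol RNA was poly(A)-selected and made into directional low-input libraries, per the labels' protocols. STAR, featureCounts, edgeR and mm10 are named in the submitters' processing notes; versions, annotation, strand setting and the handling of reads mapping to several places are not stated there. The authors deposited raw whole-number counts per NCBI gene ID in 27179 rows, of which 6829 were 0 in every library, with 0 columns unused. RefSeq (GRCm38.p6) and GENCODE tables named 25275 and 18 IDs; 1886 unnamed IDs stayed in the tests.

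Counts were filtered with filterByExpr (minimum count 10, minimum total 15), scaled by TMM and tested with edgeR 4.0.16 (quasi-likelihood F test, 2-sided, Benjamini-Hochberg over 13769 genes, R 4.3.3), with treatment as the only term; the fit was tested on simulated data. CPM values use TMM-scaled totals for single genes and plain totals for sums, percentages of counts, the Pax7 levels and the marker lists. Group shares and sums were compared by exact permutation tests (scipy 1.17.1). The likeness of profiles was taken on log2 of CPM plus 0.5. Alternatives were RLE, upper quartile and no scaling factors, no filter, DESeq2 1.42.0, limma voom (limma 3.58.1), a replicate term, other lengths and leaving out each library; the exon-union length was chosen after seeing the data. The members and lists were chosen with earlier results of these data known. Named are all 10 members, Tnni3 and Tpm4, up to 2 genes of smallest p with at least 5 CPM per list, and the 5 genes of nearest profile. Sln, Emcn and Lyz2, which averaged under 5 CPM, are added for their unadjusted p under 0.05. The planned comparison of protein sequences was made on GENCODE coding sequences.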

Additional observations from a re-analysis of the deposited data

How the results depend on the processing

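The count of 0 members called stood under all 13 alternatives of the fit (smallest adjusted p of a member 0.799, without BSA replicate 3). Over all genes 3 were called in the report's fit, 5 by DESeq2, 6 with no filter on low counts and 0 to 4 with 1 library left out. Directions of such small differences did turn. With library size alone the log2 fold change was 0.012 for Tnni1, 0.015 for Tnnt2 and 0.014 for Tnnc2. Leaving out each library in turn gave ranges of -0.0079 to 0.10 for Tnnc1, -0.076 to 0.068 for Tnnc2, -0.052 to 0.033 for Tnni1, -0.034 to 0.079 for Tnni2, -0.092 to 0.18 for Tnnt1, -0.067 to 0.047 for Tnnt2, -0.039 to 0.070 for Tnnt3, 0.0042 to 0.096 for Tpm1, -0.025 to 0.042 for Tpm2 and -0.15 to 0.15 for Tpm3. The differences in share, in percentage points, ranged from -0.667 to 0.145 for Tnni1, -0.443 to 1.02 for Tnnt1, -0.59 to 0.24 for Tnnt2, -0.52 to 0.52 for Tnnt3, 0.589 to 1.32 for Tnnc1, 0.263 to 0.849 for Tpm1, -0.89 to 0.016 for Tpm2 and -0.29 to 0.18 for Tpm3. The slow to fast log2 ratio difference ranged from -0.047 to 0.010 for troponin I, from -0.062 to 0.13 for troponin T and from 0.034 to 0.077 for troponin C, and the summed CPM difference from -445 to 1665. The cause was not tested. The length used cancels in the group differences of the slow to fast ratios, though not in the ratios themselves.

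Over all genes the deviations of same-numbered libraries correlated at 0.19 for replicates 1, -0.13 for replicates 2 and -0.15 for replicates 3. Between differently numbered libraries the correlations ran from -0.22 to 0.30. These ends were rhMG53 replicate 2 with BSA replicate 1 and with BSA replicate 3. Since not every same-numbered pair was over 0.1 the numbers are not taken as pairs, although both replicate 1 libraries were low for the 10 genes. With the replicate block 0 genes were called, against 3 without it, and the members' log2 fold changes lay between -0.030 and 0.046; an exact sign-flip permutation test of the Tnnc1 share difference gave p = 0.5, where 0.25 is the smallest that 3 pairs allow.

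The limits are the 3 libraries a group, gene-level counts that hide splice forms, the pseudogene copies of Tpm3 and the length pattern of rhMG53 replicate 2.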
